A study of Mus musculus with 8 samples.

Results

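Of the 415681 chromatin loops counted in this series of mouse embryonic stem (ES) cell lines, 336 were selected because they were higher in every library with a DBA/2J background genome than in every library with a C57BL/6J background. The assay was HiChIP, which ligates DNA ends that are neighbours in the nucleus and then enriches fragments carrying acetylated lysine 27 of histone H3 (H3K27ac). A loop is a pair of anchors on 1 chromosome, an anchor is a merged run of 5-kb bins, and the count of a loop is the number of read pairs that join its anchors. The selection rule used measured values. It took loops off chromosomes 11, X and Y with at least 30 counts in total, and kept those in which the lowest CPM (the counts of a loop per 1000000 counts of its library) of the 4 DBA/2J-background libraries was more than 1.5 times the highest of the 4 C57BL/6J-background libraries. The rule was open to 32507 loops. Differences between the backgrounds are therefore given as a description of the selected loops, with no test.

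The 8 libraries came from 4 ES cell lines, each a single line with 2 technical replicates. The line B6 5-1 (here B6) carries the C57BL/6J genome and the line D2 5-5 (D2) the DBA/2J genome, both inbred strains. The line QJ 6-1 (B6-13D2) is the congenic genotype B6.D2-(rs30079041-rs51756099)/Bakr, that is C57BL/6J apart from a DBA/2J interval of chromosome 13. The line XE 2-4 (D2-13B6) is the reciprocal congenic, D2.B6-(rs29224292-rs13469455)/Bakr in the sample labels, with a C57BL/6J interval in a DBA/2J genome; the series text names another marker for 1 end of that interval. All lines were grown in serum with LIF and the inhibitors PD0325901 and CHIR99021, so the culture conditions were shared by every group. D2 and D2-13B6 are the D2-background lines, and B6 and B6-13D2 the B6-background lines. Because each line has only technical replicates, an adjusted p below measures the spread between libraries of a line and not between independently derived lines.

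Library totals ran from 737955 to 1425304 counts, and every congenic library was deeper than every parental one. Chromosome 11, which the rule leaves out, held 13.9% to 13.96% of the counts in D2-13B6 and 10.05% to 10.6% in the other lines. Anchors at the starts of 8 of 8 fixed ES cell markers carried contacts, with a summed level of 3635 to 4460 CPM over the libraries. Of 8 fibroblast markers 2 had an anchor at their start (36.8 to 74.6 CPM, with 50.9 to 74.6 in D2 background and 36.8 to 39.7 in B6 background), and of 6 primitive endoderm markers 1 had (4.42 to 12.6 CPM). No trophoblast, neural or mesoderm marker on the lists had an anchor. The part of the fibroblast marker contacts in the selected loops was not tested.

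H3K27ac marks active promoters and enhancers. A HiChIP loop can gain counts because the sites meet more often or because more acetylated chromatin is captured. It can also gain them because the read pairs are placed differently on the reference sequence, and this list is not complete. Inbred mouse strains differ in single bases and also in larger insertions and deletions, many of them made by transposable elements. The reference assembly GRCm38 on which all positions are given here was made from C57BL/6J. In ES cells several families of transposable elements are kept silent by histone methylation and zinc finger proteins.

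Many of the selected loops with close anchors had a long stretch of repeat sequence in or across the gap. Among the 336 loops, 101 joined anchors only 5 or 10 kb apart. An unbroken stretch of repeat-masked sequence (lower case in the assembly) longer than 3000 bases lay in or across the gap of 54 of these 101 loops, a share of 53.5% (exact 95% binomial interval 43.3% to 63.4%). The same held for 193 of the 5789 loops open to the rule with anchors as close (3.33%), and for 2 of 104 loops (1.92%) that met the mirrored rule, higher in every B6-background library. The binomial interval treats loops as independent draws from 1 population. In the selection 73 anchors were in more than 1 member, so the interval is a description only. These 54 runs had a median length of 6553 bases. Their ends are printed because they show what kind of sequence meets the gap.

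In 16 of the 54 runs the same stretch of at least 12 bases stood at both ends, within 40 bases of the border. The 6 such loops with the most D2-background counts are shown on the plus strand of RefSeq GRCm38.p6, with the repeated stretch in capitals and 30 bases on each side.
Immp2l loop, left end, chr12:41379194-41379265: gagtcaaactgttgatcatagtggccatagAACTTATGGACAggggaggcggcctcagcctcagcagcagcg
Immp2l loop, right end, chr12:41385473-41385544: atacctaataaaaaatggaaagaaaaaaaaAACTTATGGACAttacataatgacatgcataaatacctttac
Nrcam loop, left end, chr12:44483040-44483116: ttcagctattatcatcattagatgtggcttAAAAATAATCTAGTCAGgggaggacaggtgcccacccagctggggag
Nrcam loop, right end, chr12:44492128-44492204: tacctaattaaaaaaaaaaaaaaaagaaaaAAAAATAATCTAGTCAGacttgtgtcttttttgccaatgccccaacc
Tenm4 loop, left end, chr7:96191466-96191539: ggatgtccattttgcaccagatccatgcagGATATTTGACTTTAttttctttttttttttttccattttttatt
Tenm4 loop, right end, chr7:96198489-96198562: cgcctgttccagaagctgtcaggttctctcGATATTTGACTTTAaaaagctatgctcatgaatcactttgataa
Rad18 loop, left end, chr6:112652629-112652703: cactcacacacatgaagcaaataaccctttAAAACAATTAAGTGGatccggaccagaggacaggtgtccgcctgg
Rad18 loop, right end, chr6:112659629-112659703: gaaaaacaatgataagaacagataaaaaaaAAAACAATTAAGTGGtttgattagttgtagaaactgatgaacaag
Plce1 loop, left end, chr19:38489935-38490010: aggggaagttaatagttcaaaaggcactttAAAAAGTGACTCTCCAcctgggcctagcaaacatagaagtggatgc
Plce1 loop, right end, chr19:38495217-38495292: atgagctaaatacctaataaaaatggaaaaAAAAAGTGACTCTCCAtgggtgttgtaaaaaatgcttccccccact
intergenic loop on chromosome 1, left end, chr1:5266697-5266771: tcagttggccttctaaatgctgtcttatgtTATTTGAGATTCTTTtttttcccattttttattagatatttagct
intergenic loop on chromosome 1, right end, chr1:5273032-5273106: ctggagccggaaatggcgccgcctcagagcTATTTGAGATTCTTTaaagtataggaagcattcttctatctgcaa
In 4 of these loops (Immp2l, Nrcam, Rad18 and Plce1) the stretch before the right copy was rich in A, with 21, 23, 21 and 17 of 30 bases, and in the Tenm4 and chromosome 1 loops the stretch after the left copy was rich in T, with 25 and 18 of 30 bases. A direct repeat around an element with an A-rich end on 1 strand is, as background, the textbook mark of insertion by a LINE-1 retrotransposon. The names of repeat families were not used here.

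The loop between 2 anchors with the largest CPM gap between the backgrounds, on chromosome 6, crossed a run with only 5 repeated bases at its ends, but its run began like that of the Immp2l loop. The 23 bases in capitals are the longest stretch shared by the first 60 bases of both runs.
Intergenic loop on chromosome 6, left end of the run, chr6:12868978-12869037: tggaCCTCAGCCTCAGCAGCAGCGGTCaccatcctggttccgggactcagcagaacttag

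A second kind of run had the same sequence at its own start and end. In 17 of the 54 runs the first and last 1000 bases held a match of at least 200 bases at 90% identity or more on the same strand, with a median length of 354 bases and a median identity of 100%. Such long terminal repeats are, as background, the mark of endogenous retroviruses and related elements. The first 45 bases of both copies are in capitals for the 2 loops with the most D2-background counts.
Gm12784 loop, left copy, chr7:34524502-34524561: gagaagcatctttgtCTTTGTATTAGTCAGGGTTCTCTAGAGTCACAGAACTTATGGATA
Gm12784 loop, right copy, chr7:34530444-34530503: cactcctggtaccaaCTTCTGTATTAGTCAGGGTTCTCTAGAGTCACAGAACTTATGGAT
Tdgf1 loop, left copy, chr9:110970433-110970492: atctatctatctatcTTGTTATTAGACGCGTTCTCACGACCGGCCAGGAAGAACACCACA
Tdgf1 loop, right copy, chr9:110975432-110975491: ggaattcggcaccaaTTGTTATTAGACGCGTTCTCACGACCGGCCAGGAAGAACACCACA
The 2 kinds hardly met: 1 of the 54 runs (the Plce1 loop) had both features and 22 had neither. By sequence similarity, at 90% identity over at least 1000 bases, 53 of the 54 runs fell into 4 groups. The largest group had 28 runs with a median of 6786 bases, of which 15 had the direct repeat and 0 a terminal match. The second had 15 runs with a median of 6743 bases, of which 12 had a terminal match, and the third had 6 runs, of which 5 had one. The last group had 4 runs with a median of 3477 bases and neither feature. Among the 137 long runs in loops that met neither rule, 37 had the direct repeat and 31 a terminal match, so these features were not limited to the selected loops. Whether the DBA/2J genome carries these runs was not tested, since no DBA/2J sequence was used here.

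**Figure D1:**
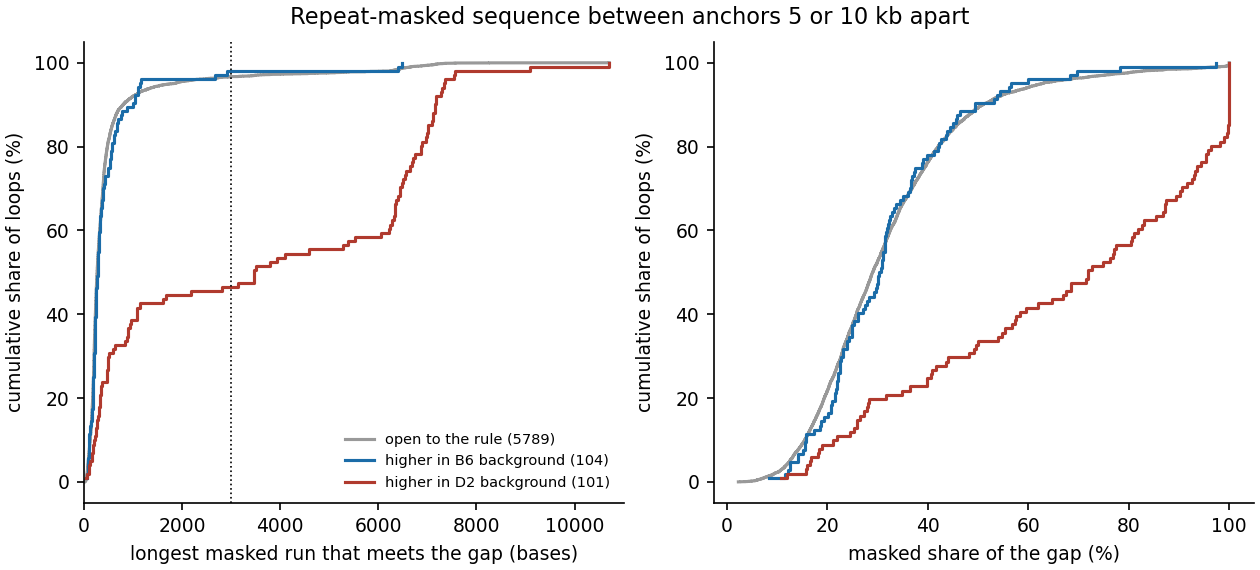
Cumulative share of loops with anchors 5 or 10 kb apart, by the longest repeat-masked run that meets the gap in bases (left, dotted line at 3000 bases) and by the masked share of the gap in percent (right), for the 101 selected loops, the 104 loops of the mirrored rule and all 5789 loops open to the rule. The selected loops stand apart from the other curves, with a median masked share of 71.9% against 30.5% and 29.1%.

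The share of close loops with a long run was higher among members with a larger ratio of lowest to highest CPM. The rule used this ratio, so this is a description and not a test. The share was 13 of 40 close loops (32.5%) with a ratio up to 2, 31 of 47 (66.0%) with a ratio over 2 and up to 5, and 10 of 14 (71.4%) above that. Read the other way, 54 of the 193 close loops with a long run were selected (28.0%), against 47 of 5596 without one (0.840%). Close loops with a long run that met neither rule had a median log2 difference, D2 over B6 background, of 0.26, against -0.11 for those without; both are on the scale of log2 (CPM + 1), as are all log2 differences between the backgrounds below. Contacts inside an anchor were compared with the mirrored rule alone, with no share over all loops open to the rule. In 17 of the 56 selected loops inside 1 anchor, a run longer than 3000 bases met the gap between the bins of the strongest bin pair, against 2 of 71 for the mirrored rule.

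The 54 members with a long run had a median fold of mean CPM of 6.70, against 3.85 over all members. The one with the largest CPM gap was an intergenic loop between chr6:12865001-12870000 and chr6:12875001-12880000. B6 gave 1 and 2 counts, B6-13D2 1 and 2, D2 189 and 211, and D2-13B6 233 and 226. In CPM the levels were 1.05 and 2.71 (B6), 1.02 and 1.47 (B6-13D2), 227 and 275 (D2), and 167 and 159 (D2-13B6). The B6-background libraries were near 0, and the ratio of count rates over the backgrounds was 131. The run across its gap is 6327 bases long, at chr6:12868978-12875304, and reaches into both anchors.

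A loop in the body of Immp2l, which encodes a mitochondrial inner membrane peptidase subunit, joined chr12:41375001-41380000 and chr12:41385001-41390000. Its CPM were 6.30 and 10.8 in B6, 11.2 and 2.95 in B6-13D2, 180 and 223 in D2, and 158 and 126 in D2-13B6. A loop in Nrcam, a neuronal cell adhesion gene, joined chr12:44480001-44485000 and chr12:44490001-44495000. It had 4 and 0 counts in B6, 0 and 2 in B6-13D2, 52 and 69 in D2, and 44 and 48 in D2-13B6. Both loops lie inside a gene body, with no annotated start in either anchor, and each consisted of 1 pair of bins. The other contacts of the Nrcam anchors went the other way, with 4.90 CPM in D2 background and 6.96 in B6 background.

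Of the 19 naive pluripotency genes on the list with a start at a loop open to the rule, 1 had a selected loop, Tdgf1. Tdgf1 encodes Cripto, a co-receptor for the ligand Nodal that is used as an ES cell marker. The loop joined an anchor with the starts of Tdgf1 and Lrrc2, chr9:110935001-110970000, to the body of Lrrc2, chr9:110975001-110980000. Its CPM were 29.4 and 23.0 in B6, 28.5 and 20.6 in B6-13D2, 123 and 113 in D2, and 141 and 148 in D2-13B6. The remaining contacts of both anchors summed to 341 CPM in D2 background and 294 in B6 background, so the loop differed 5.17-fold in mean CPM while the rest of the contacts of its anchors differed far less (log2 0.21). Of the terminal repeats shown above, the left copy is in the gap of this loop and the right copy in its second anchor.

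In Wapl, which encodes a factor that releases cohesin from DNA, a loop joined chr14:34685001-34700000 and chr14:34705001-34720000. A run of 7305 bases began in its gap and reached into the second anchor. This loop had 33.6 and 46.1 CPM in B6, 78.4 and 47.2 in B6-13D2, 147 and 223 in D2, and 166 and 173 in D2-13B6. The other contacts of its anchors were 419 CPM in D2 background and 475 in B6 background. The start of Wapl lay at a loop of the mirrored rule, higher in every B6-background library.

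The 56 loops inside 1 anchor were 16.7% of the selection, against 12.6% of the loops open to the rule and 19.7% of those of the mirrored rule. They held 40.01% of the D2-background counts of the selected loops. The one with the largest CPM gap was the anchor at the start of Plekhm3, chr1:64945001-64985000, with 70.4 and 52.8 CPM in B6, 65.2 and 57.5 in B6-13D2, 386 and 400 in D2, and 514 and 496 in D2-13B6. The difference was 7.30-fold in mean CPM. A masked run of 7086 bases met the gap between the bins of its strongest bin pair. Long runs of 6462, 6441 and 6408 bases did so in the anchor at the non-coding gene Gm18969 (chr1:101750001-101775000, 13.7-fold), the one at Gm31415 (chr3:49060001-49085000, 11.1-fold) and an intergenic one (chr4:53315001-53355000, 5.08-fold).

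The promoters of Plekhm3 and Tdgf1 lie in anchors of leading members and are printed from RefSeq GRCm38.p6, 250 bases before to 50 after the gene start, with capitals on the motif GGGCGG or its reverse complement CCGCCC.
Plekhm3 promoter, chr1:64956775-64957074, minus strand: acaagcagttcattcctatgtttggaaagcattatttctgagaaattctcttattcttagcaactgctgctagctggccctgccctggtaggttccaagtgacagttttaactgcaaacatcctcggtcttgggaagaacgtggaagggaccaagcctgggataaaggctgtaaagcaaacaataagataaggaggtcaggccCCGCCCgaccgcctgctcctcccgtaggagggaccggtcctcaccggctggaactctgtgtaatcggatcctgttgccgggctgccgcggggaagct
Tdgf1 promoter, chr9:110946109-110946408, minus strand: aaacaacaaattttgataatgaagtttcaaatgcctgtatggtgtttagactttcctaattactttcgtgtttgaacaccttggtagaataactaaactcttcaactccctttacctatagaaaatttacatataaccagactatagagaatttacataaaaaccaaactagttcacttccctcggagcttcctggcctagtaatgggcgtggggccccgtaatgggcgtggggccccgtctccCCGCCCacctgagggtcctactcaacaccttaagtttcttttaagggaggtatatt
The motif was present, on either strand, in 54.5% of the 202 promoters matched to genes with a start at a selected loop, in 63.3% of 7812 promoters at loops open to the rule and in 35.7% of all 32851 promoters. The median number of CG dinucleotides per 300 bases was 18, 21 and 7 in the same order. Of 209 protein-coding genes with a start at a selected loop, 202 were matched by symbol.

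Other leading loops inside 1 anchor had no long run at their strongest bin pair and smaller folds. An anchor in the body of Ror2, a receptor for Wnt5a, chr13:53120001-53165000, had 163 and 160 CPM in B6, 113 and 119 in B6-13D2, 268 and 281 in D2, and 253 and 271 in D2-13B6. The intergenic anchor chr17:80760001-80815000 had the most counts of any member, 3140, with 209 to 282 CPM in B6 background and 433 to 540 in D2 background. In these anchors the D2-background level was close to 2-fold that of the B6 background (1.94 and 2.09), without overlap, as the rule required. The anchors in Pcmtd1 (2.02-fold) and at chr1:90880001-90910000 (2.50-fold) had similar folds.

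Among close loops without a long run, the intergenic loop between chr10:8535001-8545000 and chr10:8550001-8565000 had 5.25 and 10.8 CPM in B6, 3.05 and 2.21 in B6-13D2, 118 and 154 in D2, and 138 and 140 in D2-13B6. The other contacts of its anchors were higher too, at 88.4 CPM in D2 background and 20.02 in B6 background. The intergenic loop between chr5:144660001-144670000 and chr5:144675001-144685000 had 3.15 and 12.2 CPM in B6, 4.07 and 2.95 in B6-13D2, 89.0 and 97.7 in D2, and 88.9 and 82.1 in D2-13B6. In both, the difference between the backgrounds was far larger than the rule required.

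**Figure D2:**
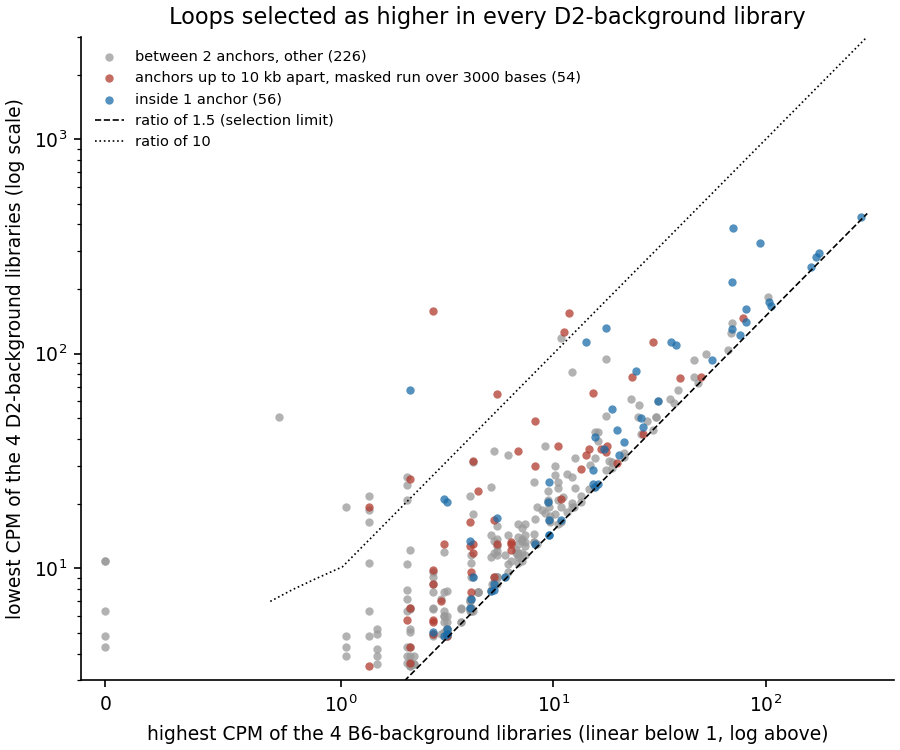
Lowest CPM of the 4 D2-background libraries (log scale) against the highest of the 4 B6-background libraries (linear below 1, log above) for all 336 selected loops, coloured by kind. All points lie above the dashed line because the rule set it. Red points are the 54 close loops with a long run, and points of all 3 colours lie above the dotted line of a ratio of 10.

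The folds ranged widely. The ratio of lowest D2-background to highest B6-background CPM was over 1.5 and up to 2 in 175 loops, over 2 and up to 5 in 122, over 5 and up to 10 in 18 and over 10 in 16, and 5 loops had 0 counts in all 4 B6-background libraries. The median ratio was 1.95 and the median fold of mean CPM 3.85. At the limit, the 3 members with the lowest ratios had 1.501, 1.501 and 1.502 (a loop to the Hoxa-linked non-coding gene Halr1, an anchor in Tfap2a, and one at Abcf1), and the nearest loops outside had 1.495, 1.496 and 1.497. The selected loops took up 1.37% ± 0.0759 of the counts of D2 and 1.28% ± 0.0123 of those of D2-13B6 (SD, n = 2 technical replicates each). The shares were 0.382% ± 0.00385 for B6 and 0.358% ± 0.0119 for B6-13D2. The edgeR fit described below called 322 of the 336 members between backgrounds, where 10.2% of the tested loops open to the rule were called; the members were selected on these values, so nothing is read from this count.

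The loops with 0 counts in B6 background joined distant anchors, at members of gene families in 2 cases. A loop of 277.5 kb joined the starts of Gm13083 (chr4:143615001-143620000) and Pramef6 (chr4:143890001-143900000), genes of the PRAME family, with 17 and 18 counts in D2 and 6 and 11 in D2-13B6. With the B6-background side set at 3 counts over its 4 libraries, its rate was at least 15.8-fold higher in D2 background. A loop of 1260 kb, the longest in the selection, joined the starts of the zinc finger genes Zfp981 (chr4:146510001-146520000) and Zfp984 (chr4:147770001-147780000), with 9 and 10 counts in D2, 15 and 22 in D2-13B6, and a rate at least 17.02-fold higher. The other 3 were at Haus8 and Myo9b on chromosome 8 (79 counts, at least 24.0-fold), between Gm18128 and Gm17768 on chromosome 7 (39 counts, at least 11.8-fold) and in Zfp949 on chromosome 9 (33 counts, at least 10.0-fold). Genes of these families have near-identical copies, so the placement of their read pairs is uncertain.

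The long loop with the most counts was also at zinc finger genes. It joined an anchor with the starts of Gm6871 and 2610021A01Rik, chr7:41555001-41605000, to the start of Zfp141, chr7:42490001-42515000, a span of 922.5 kb. Its CPM were 4.20 and 17.6 in B6, 7.13 and 7.37 in B6-13D2, 109 and 159 in D2, and 93.9 and 98.2 in D2-13B6. Its strongest bin pair had 162 counts in D2 background and 0 in B6 background, while the other contacts of its anchors were lower in D2 background (349 against 520 CPM). The remaining loops among the 5 longest were Zfp981 to Zfp985 (85 against 8 counts), Gm21863 to Zfp125 (30 against 1) and Grin2b to Atf7ip (34 against 5). Of 239 zinc finger genes with a start at a loop open to the rule, 9 (3.77%) had one at a selected loop and 15 (6.28%) at a loop of the mirrored rule, beside 2.68% and 2.98% of all 7811 such protein-coding genes. Zfp184, Zfp984 and Zfp985 had starts at loops of both rules, so these genes were not higher in D2 background alone.

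**Figure D3:**
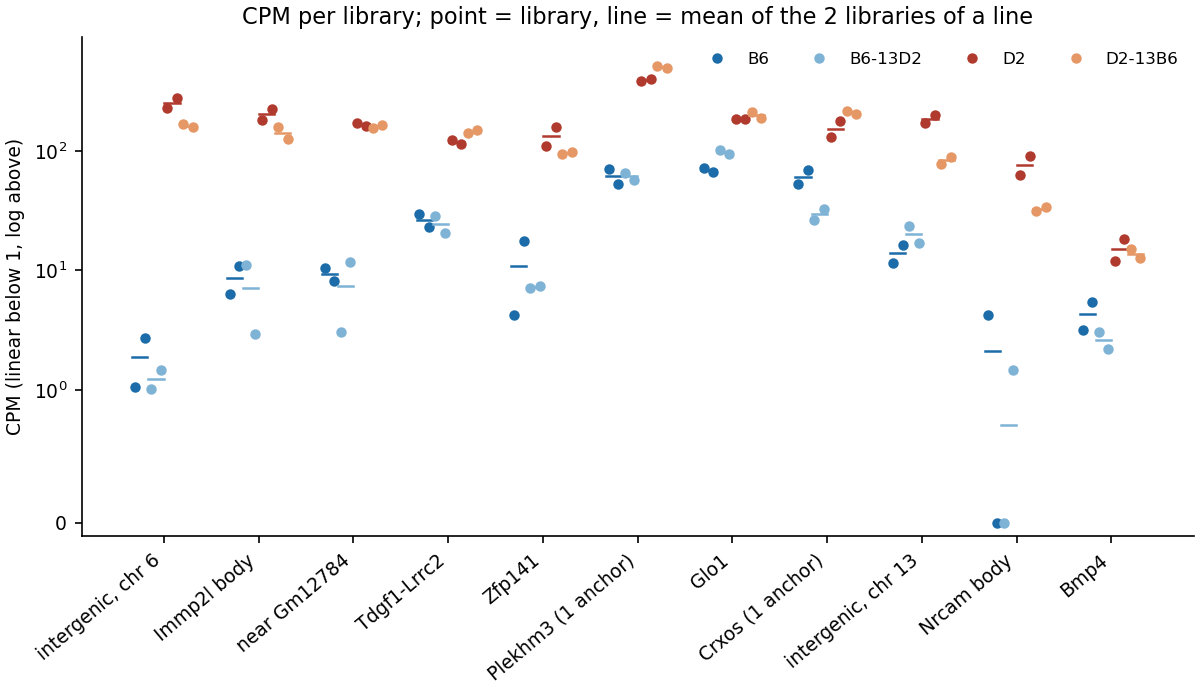
CPM in each library (linear below 1, log above) for 11 named loops, with the B6-background lines in blue and the D2-background lines in red and orange. Points are libraries and short lines the mean of the 2 libraries of a line. In each loop shown all 4 D2-background points lie above all 4 B6-background points because the rule required it. In the Nrcam loop 2 of the B6-background libraries had 0 counts.

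The selected loops were not evenly spread. They lay in 214 windows of 1 Mb, of which 155 held 1 member and 22 held 3 or more. The densest window, on chromosome 7 from 34 Mb, held 28 of the selected loops out of 98 open to the rule there, among 13 anchors from 34225001 to 34675000, a region between Gpi1, a glycolytic enzyme gene, and Kctd15. Summed over these loops, the libraries had 251 and 201 CPM in B6, 146 and 136 in B6-13D2, 835 and 797 in D2, and 998 and 986 in D2-13B6. The leading loop there, to the non-coding gene Gm12784 between chr7:34520001-34525000 and chr7:34530001-34550000, crossed a run of 6444 bases and had 10.5 and 8.13 CPM in B6, 3.05 and 11.8 in B6-13D2, 172 and 163 in D2, and 155 and 166 in D2-13B6. Here the neighbourhood moved with it: the other contacts of its anchors outside the selection were 165 CPM in D2 background and 70.9 in B6 background.

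The window on chromosome 5 from 104 Mb held 9 selected loops of 37 open to the rule, beside 2 loops of the mirrored rule. The selected loops had starts of Spp1 (osteopontin), Pkd2 (a polycystin channel) and Zfp951, and 984 counts in D2 background against 107 in B6 background. Within it the loop between chr5:104660001-104665000 and chr5:104785001-104800000 had 0 and 0 counts in B6, 0 and 1 in B6-13D2, with 83.0 and 97.7 CPM in D2 and 68.8 and 50.5 in D2-13B6. Its count rate was 284 times as high in D2 as in B6 background (exact 95% interval 50.7 to 11270, which covers counting error only and is no test, as the loop was selected on these counts), the highest factor of any member with a count in B6 background. It spans 130 kb, and 87.5% of its D2-background counts were in 1 bin pair. The 2 loops with a start of Zfp951 had 155 against 9 and 83 against 3 counts. Other dense windows were on chromosome 9 from 46 Mb with 6 loops and no protein-coding start (402 against 68), and on chromosome 19 from 38 Mb with 5 loops at Plce1 and Slc35g1 (582 against 170). Loops of a window share anchors, so they are not independent of each other.

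None of the 6 formative and primed genes, 1 two-cell and germline gene, 16 heterochromatin and methylation genes, 6 imprinted genes and 3 Hox genes with a start at a loop open to the rule had one at a selected loop. At loops of the mirrored rule there were 2 of the heterochromatin and methylation genes and 0 of the other 4 groups. Of 11 genome architecture genes 1 was at a selected loop and 1, Wapl, at a loop of the mirrored rule. The first was Nipbl, the cohesin loader, in a loop from chr15:8440001-8455000 to chr15:8815001-8850000 with 1.05 and 1.36 CPM in B6, 2.04 and 0.737 in B6-13D2, 8.42 and 13.0 in D2, and 7.88 and 9.12 in D2-13B6. The distal anchor of that loop was a leading member by itself, with 42.0 to 69.1 CPM in B6 background and 217 to 254.7 in D2 background. Of 10 signalling genes 2 were at loops of the mirrored rule and 1 at a selected loop, Bmp4, a ligand of the TGF-beta family, in a loop of 47.5 kb with 2.21 to 5.42 CPM in B6 background and 12.03 to 18.2 in D2 background.

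Of the histone genes, 19 of 63 (30.2%) had a start at a selected loop and 0 at a loop of the mirrored rule. They came from 4 loops and 4 anchors of clustered genes, so the count of genes overstates the count of events. The one with the most counts joined Hist4h4 and H2afj (chr6:136800001-136815000) to Wbp11 (chr6:136825001-136830000), with 23.1 and 23.0 CPM in B6, 45.8 and 32.4 in B6-13D2, 78.2 and 82.0 in D2, and 83.9 and 92.6 in D2-13B6. Its window of 1 Mb held this 1 selected loop and 7 loops of the mirrored rule, out of 23 open to the rule. The cluster loop from Hist1h4m to Hist1h4i had 25 counts in B6 background and 81 in D2 background. Of 5 H2 genes, which encode major histocompatibility proteins, H2-T24 and H2-T3 were at selected loops, 4.02-fold and 2.15-fold higher, and 1, H2-M5, was at a loop of the mirrored rule. Histone and H2 genes have near-identical copies, which leaves the placement of their read pairs uncertain.

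A gene start lay in either anchor of 148 of the 336 loops (44.1%), against 73.6% of the loops open to the rule and 55% of those of the mirrored rule. Loops between 2 anchors without a coding gene start made up 44.3%, against 20.98% of loops open to the rule and 33.6% of those of the mirrored rule. The median span between 2 anchors was 40 kb, against 70 kb for loops open to the rule and 35 kb for those of the mirrored rule. A short span was thus not particular to the selection. Anchors had a median GC content of 43.7%, against 45.5% in loops open to the rule and 44.9% under the mirrored rule. Their median masked share was 36.1%, against 29.1% and 29.5% in the same order. Among the members with a start at both ends was the loop between Glo1, which encodes glyoxalase, and Dnah8, an axonemal dynein gene (chr17:30590001-30615000 to chr17:30620001-30640000), with 71.4 and 66.4 CPM in B6, 102 and 93.6 in B6-13D2, 185 and 184 in D2, and 213 and 188 in D2-13B6. The other contacts of its anchors were also higher in D2 background, at 286 against 155 CPM.

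To see whether a whole anchor or only a given contact was higher, each selected loop was set beside the other contacts of its anchors that met neither rule. All 4 D2-background libraries exceeded all 4 B6-background libraries in those other contacts for 160 of 336 members, against 9.45% of loops open to the rule. The median log2 difference was 1.72 for the loops themselves and 0.46 for the other contacts, against -0.02 for the other contacts of all loops open to the rule. Loops of the mirrored rule had -1.45 and their other contacts -0.69, so such a shift was not particular to the selected loops. For 48 members the other contacts were not higher in D2 background. Of these, 15 were among the 54 close loops with a long run and 22 among the 179 with anchors over 10 kb apart. In the close loops with a long run the strongest bin pair held a median of 92.0% of the counts, and the median fold was 6.70. In the 47 close loops without such a run these values were 52.4% and 3.06, and 2 of 47 had other contacts that were not higher.

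**Figure D4:**
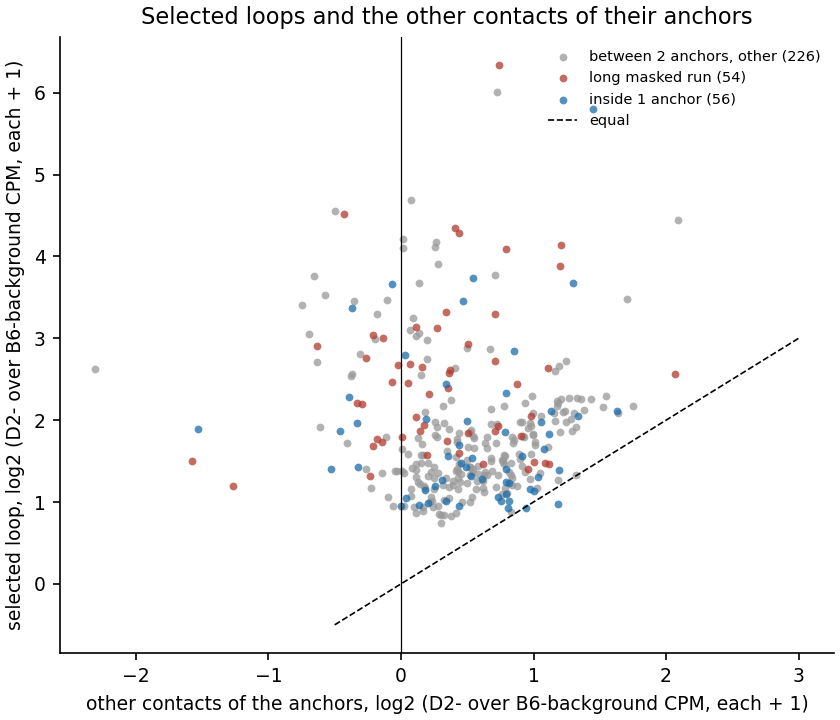
Log2 of D2- over B6-background mean CPM, 1 added to each, for each selected loop (vertical axis) and for the other contacts of its anchors that met neither rule (horizontal axis), with equality dashed. Most points lie right of 0 and well above the dashed line, and 15 of the 54 close loops with a long run (red) are among the 48 at or left of 0.

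The interval contrasts compare libraries within a background, a contrast the rule did not use, so they were tested. Each genotype was 1 line, so an effect of the interval cannot be told apart from other differences between the lines. The name interval effect below stands for the contrast only. The rule did use the level of each library, through the lowest and the highest of a background, and the D2 libraries were shallower than those of D2-13B6. The part of this selection in the members' share of calls was not tested. In D2 background, 11 of the 336 loops differed between D2 and D2-13B6 in edgeR's quasi-likelihood test at a false discovery rate of 0.05 over 44706 loops, all higher in D2, the line with the DBA/2J interval. The background is 0.676% of the loops open to the rule called in either direction and 0.244% called as higher in D2, and the share of members was 3.27%. This background was not matched on counts. The median total over the 8 libraries was 94.5 in members and 69 in loops open to the rule, so the shares are not directly comparable. Of the 11, 7 were among the 54 close loops with a long run. The median log2 difference was 0.06 over the 336 loops, 0.20 over those 54 and 0.03 over all tested loops open to the rule. The calls rested on D2 replicate 2: without it 3 members were called, of which 2 were from the 11 and 1 was lower in D2. Without D2 replicate 1 there were 7, without the D2-13B6 replicates 7 and 6, with DESeq2 1, and with no filter on low counts 3.

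The clearest was an intergenic loop on chromosome 13 between chr13:19950001-19955000 and chr13:19960001-19970000, across a run of 6360 bases. It had 11.6 and 16.3 CPM in B6, 23.4 and 16.9 in B6-13D2, 171 and 199 in D2, and 78.1 and 88.4 in D2-13B6. The D2 level was above the D2-13B6 level in both libraries, with a log2 difference of 1.10 (SE 0.16, edgeR adjusted p = 1.7e-08, and 9.05e-11 to 0.00903 over the alternatives). This loop was called in 13 of 13 alternatives. An intergenic loop between chr1:191925001-191935000 and chr1:191940001-191950000, with no long run, had 134 and 126 CPM in D2 and 64.5 and 51.2 in D2-13B6, with 11.2 to 17.7 in B6 background. Its log2 difference was 1.12 (SE 0.18, edgeR adjusted p = 8.01e-07), and it was called in 12 of 13 alternatives, all but DESeq2. The Nrcam loop had 62.5 and 89.8 CPM in D2 and 31.5 and 33.7 in D2-13B6, a log2 difference of 1.17 (SE 0.22, edgeR adjusted p = 0.000117; not called without D2 replicate 2 or with DESeq2). The chromosome 6 loop with the largest gap was also among the 11, at a log2 difference of 0.57 (SE 0.14, edgeR adjusted p = 0.00824), which was not called without D2 replicate 2, without either D2-13B6 replicate, with DESeq2 or with no filter.

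In B6 background, 2 of the 336 loops were called between B6-13D2 and B6, against 1.04% of the loops open to the rule, and both were lower in B6-13D2; without B6-13D2 replicate 2 neither was called, and 2 other members were, 1 of them higher. The rule keeps members low in the B6-background libraries. Their median member CPM was 3.68 to 4.20, against 16.1 to 19.2 in D2 background, and 29 to 37 members had 0 counts in each. Few members could be called here, so the number of calls was not compared with that in D2 background. In the anchor at Crxos, a homeobox gene, chr7:15880001-15910000, the CPM were 52.5 and 69.1 in B6, 26.5 and 32.4 in B6-13D2, 130 and 177 in D2, and 216 and 202 in D2-13B6. The log2 difference was -0.97 (SE 0.24, edgeR adjusted p = 0.0166), and it was not called without B6 replicate 2, without either B6-13D2 replicate, with DESeq2 or with no filter. The loop at Plce1, a phospholipase C gene, between chr19:38480001-38490000 and chr19:38500001-38510000, had 17.9 and 10.8 CPM in B6 and 2.04 and 5.16 in B6-13D2 (log2 -1.88, SE 0.53, edgeR adjusted p = 0.0478), and was called in only 2 of 13 alternatives. The interval effect averaged over both backgrounds, DBA/2J allele minus C57BL/6J allele, called 3 members, against 1.05% of the loops open to the rule. These were Crxos (log2 -0.74, SE 0.14, edgeR adjusted p = 0.000186), a loop of 55 kb in the chromosome 7 cluster (log2 -1.01, SE 0.23, edgeR adjusted p = 0.00302) and the chromosome 13 loop above (log2 0.83, SE 0.20, edgeR adjusted p = 0.0099). The chromosome 7 loop was not called without B6 replicate 1, the chromosome 13 loop not without B6 replicate 1, D2 replicate 2 or B6-13D2 replicate 1 or with no filter, and none of the 3 with DESeq2. At Crxos the lines with the C57BL/6J allele of the interval were higher in both backgrounds. The difference of the interval effect between backgrounds called 0 of the 336 members in edgeR, with 35 (10.4%) at an unadjusted p under 0.05 beside 2902 (8.96%) of the loops open to the rule, and 0 in DESeq2; edgeR called 0.503% of the tested loops open to the rule.

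**Figure D5:**
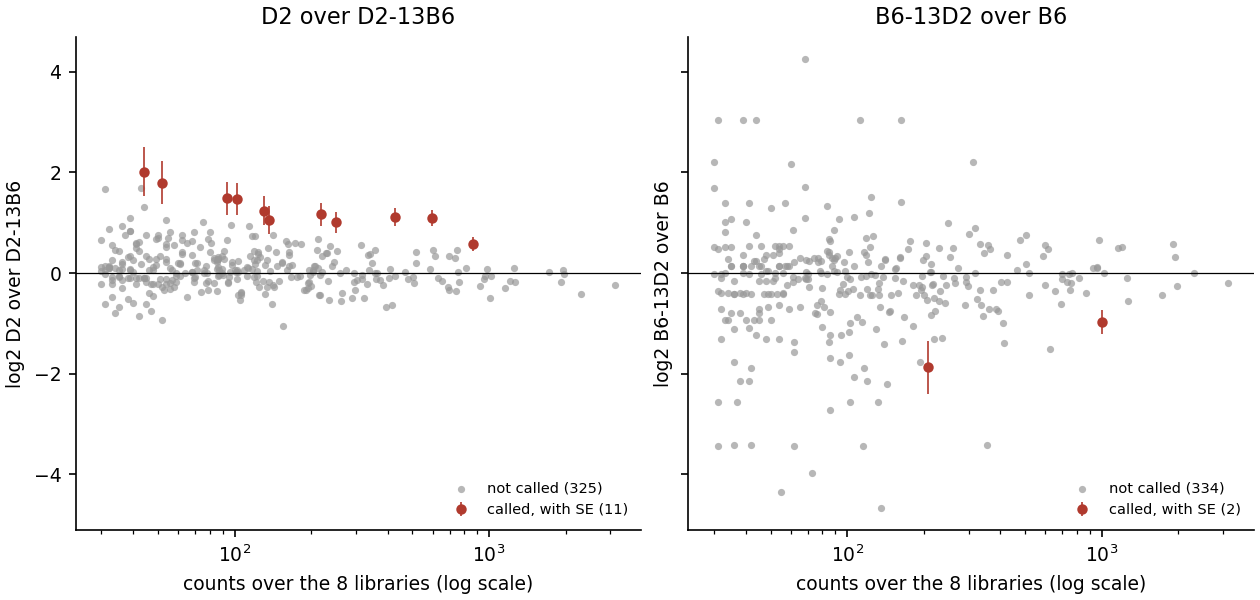
Log2 difference of D2 over D2-13B6 (left) and of B6-13D2 over B6 (right) for each selected loop against its counts over the 8 libraries (log scale), with called loops in red and bars of 1 standard error. The 11 called loops on the left all lie above 0 and the 2 on the right below 0, while the other members scatter around 0 with a spread that widens at low counts.

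On chromosome 13 itself there were 16 selected loops of 1195 open to the rule (1.34%), from 19950001 to 102845000, and over the chromosomes the share ran from 0.532% on chromosome 8 to 1.45% on chromosome 7. The positions of the markers that bound the interval were not used here, so members inside and outside it were not told apart.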

How the data were processed

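Per the labels' protocols, H3K27ac HiChIP libraries were made with a micrococcal nuclease kit and sequenced in pairs of 150 bp. The submitters' processing notes name BWA 0.7.18, SAMtools 1.19.2, edgeR 3.34.1 and the build mm10 (GRCm38), without saying what each was used for. The deposited values were raw counts per loop, not normalized, in a table of the whole series, and counts per pair of 5-kb bins in a file for each library. Bins started 10 kb to 2000 kb apart. No column of per-sample values was left without a sample (0). CPM used the totals of the table's columns. The labels name no molecular identifiers, and intervals cover counting error only.

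The fit took the 44706 loops that reached 5 counts in 2 or more libraries and was made with edgeR 4.0.16 (R 4.3.3; TMM factors, quasi-likelihood test, 1 mean per line, Benjamini-Hochberg at 0.05). All 336 members passed this filter. A standard error is the log2 difference over the square root of its F statistic. The fit was first tested on simulated data. Alternatives were other scaling, no chromosome 11, no filter, DESeq2 1.42.0, a replicate block, each library left out, and other limits in the rule.

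Gene starts came from GENCODE M21, sequence from RefSeq GRCm38.p6, and matches from blastn 2.17.0. Named loops were the 10 inside 1 anchor and the 10 between 2 anchors with the largest gap between backgrounds (1 Mb apart), the 5 with 0 counts in B6 background, the 5 longest, up to 3 called per contrast and direction, up to 3 per gene list, the loops at the limit, the 5 densest windows and up to 5 on chromosome 13; some of these are not reported here. The loops with printed sequence were chosen after their values were seen. The members and the lists were chosen with earlier results of these data known.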

Additional observations from a re-analysis of the deposited data

How the results depend on the processing

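The number of loops that met the rule was 336, against 619 with a lower limit on the ratio and 161 with a ratio of 2, and it changed by less than 1.5 times with TMM factors, a total of 20 or 50, or bin pairs in place of loops (480). Leaving out each library gave 372 to 487 loops. The number of members called between D2 and D2-13B6 was 11, against 3 with no filter on low counts and 1 with DESeq2, and 3 to 12 with a library left out. Between B6-13D2 and B6 it was 2, against 0 with no filter, 0 with DESeq2, 1 with the replicate block and 0 to 2 with a library left out. For the averaged interval effect it was 3, against 0 with DESeq2 and 1 to 5 with a library left out. The replicate block moved no other count of calls by over 1.5 times, and correlations of replicate deviations between lines were -0.0497 to 0.00431, so the numbers did not pair the libraries. The background effect over all loops called 3955, against 1827 with no filter and 1028 with DESeq2; leaving out a library gave 2829 to 3441. No member called in the fit as reported changed direction, but other members were called the opposite way: 1 lower in D2 without B6 replicate 1 or without D2 replicate 2, and 1 higher in B6-13D2 without B6-13D2 replicate 2. The median span was 57.5 kb with a total of 20 or more, and 12.4% of loops were inside 1 anchor with a ratio of 2. Among close members, the share with a long run was 40.3% with that lower limit, 67.2% with a ratio of 2, and 44.6% to 55.5% with runs over 5000 or 2000 bases. These settings were added after the data were seen. The cause of these changes was not tested. Depth limits loops with few counts: the median member had 94.5 counts over the 8 libraries.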
